A study of Mus musculus with 20 samples.

Results

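The 10 genes described here are those that adult muscle fibres use at the nerve contact, raise when the nerve is lost, or express mainly before birth. They are Chrna1, Chrnb1, Chrnd, Chrne and Chrng, which encode the alpha, beta, delta, epsilon and gamma subunits of the muscle acetylcholine receptor, the receptor kinase gene Musk, the transcription factor gene Runx1, the adhesion molecule gene Ncam1, and the embryonic and perinatal myosin heavy chain genes Myh3 and Myh8. They were taken by symbol from a table of 21844 genes, in which all 10 were found. Messenger RNA had been sequenced in 20 libraries of mouse hindlimb muscle. Every mouse, controls included, is labelled Cre+:iMSBmal1 fl/fl, that is, it carried a Bmal1 gene flanked by loxP sites and an inducible, muscle-specific Cre recombinase. The 4 groups, of 5 libraries each, were vehicle without exercise (vehicle sedentary), iMSBmal1KO without exercise (knockout sedentary), vehicle with exercise training (vehicle trained) and iMSBmal1KO with exercise training (knockout trained). Vehicle and knockout groups thus share a genotype label, and an effect of the inducing treatment cannot be told apart from the knockout. Training was 6 weeks of daily treadmill running, and muscle was taken 48 hours post by the sample labels and 47 hours after the last bout by the series text. The labels disagree on the muscle, gastrocnemius in one field and tibialis anterior in another, and give neither age nor sex, nor the promoter that drives Cre. BMAL1 is a transcription factor at the core of the circadian clock.

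In an innervated adult fibre, transcription of receptor subunit genes is high in the few nuclei under the nerve terminal and low elsewhere. Agrin from the nerve acts through LRP4 and MuSK to hold the receptors in place, and electrical activity keeps the genes silent in the other nuclei. The fetal receptor contains the gamma subunit, and the adult receptor contains epsilon in its place. After denervation the activity signal is lost, myogenic factors such as myogenin bind E-boxes (CANNTG) in subunit gene promoters, and RNA of alpha, beta, delta and gamma subunits, MuSK, RUNX1, NCAM and embryonic myosin rises along the fibre.

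The promoters of 3 subunit genes are printed because RNA of Chrna1 and Chrnb1 rose in the libraries labelled knockout and that of Chrne, the adult-type subunit gene, did not pass the test. Each is the 250 bases before the RefSeq start in build GRCm38.p6, on the minus strand, with matches to CANNTG or to CCGGAA (the N-box of synaptic genes, bound by ETS factors) in capitals. The regions are chr2:73580339-73580588 for Chrna1, chr11:69795938-69796187 for Chrnb1 and chr11:70619195-70619444 for Chrne.

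Chrna1: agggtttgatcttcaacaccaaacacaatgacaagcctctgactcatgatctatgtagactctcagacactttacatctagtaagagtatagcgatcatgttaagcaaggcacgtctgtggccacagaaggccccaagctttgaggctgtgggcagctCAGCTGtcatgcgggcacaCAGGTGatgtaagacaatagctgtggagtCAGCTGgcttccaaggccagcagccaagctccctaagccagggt

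Chrnb1: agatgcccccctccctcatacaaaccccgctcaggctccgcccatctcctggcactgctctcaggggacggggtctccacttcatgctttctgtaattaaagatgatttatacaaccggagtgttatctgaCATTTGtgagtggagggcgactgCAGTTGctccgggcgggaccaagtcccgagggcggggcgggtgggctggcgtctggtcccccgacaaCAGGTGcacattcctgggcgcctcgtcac

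Chrne: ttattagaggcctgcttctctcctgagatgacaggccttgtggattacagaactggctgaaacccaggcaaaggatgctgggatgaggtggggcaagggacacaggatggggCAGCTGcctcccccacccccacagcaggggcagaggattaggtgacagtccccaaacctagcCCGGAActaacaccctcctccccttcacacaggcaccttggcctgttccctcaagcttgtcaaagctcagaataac

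Both strands were searched, and the motifs overlap in that CAGCTG and CACGTG are also matches to CANNTG. The Chrna1 window held 3 matches to CANNTG, at 92, 73 and 44 bases before the start, of which 2 read CAGCTG. The Chrnb1 window also held 3, none of which reads CAGCTG. The Chrne window held 1, a CAGCTG at 138 bases before the start, and 1 CCGGAA at 76 bases before it. None of the 3 windows held CACGTG, the E-box form preferred by BMAL1 and CLOCK. Of the windows found for these genes, only 1 of Runx1 held it, at 71 bases before the start. Over 32851 windows of the same length, 66.2% held CANNTG, 13% CAGCTG, 6.02% CACGTG and 12% CCGGAA. In all, 8 of the 10 genes had a window in the RefSeq table, and Chrnd and Ncam1 had no entry. Outside the 3 printed, Musk, Chrng and 1 of 2 Runx1 windows also held 3 matches to CANNTG each. The other Runx1 window held 0, and Myh3 and Myh8 held 1 each. None of these genes was called for the knockout in the fit of all samples, where Chrng did not pass the filter.

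Total estimated counts lay between 10610333 and 19153527 per library, and values are given in CPM, counts per 1000000 of the library's own total. Knockout trained libraries 1 and 4, and libraries 3 and 5, differed less at high counts than any other pair. Their high-count noise was 2.38 and 1.755 times sampling noise, against at least 6.38 times in the other pairs. It was at most 1.25 times their low-count noise, against at least 2.31 times in the other pairs. Each of these 2 pairs was counted as 1 sample, so that group has n = 3. Vehicle trained library 2 stood far from its group, with 24.5% of 14359 tested genes above and 35.6% below the range of the other 17 samples, and the tests of the 9 genes that passed the filter on low counts are given with and without it. The targeted gene, listed under its earlier symbol Arntl, did not fall with the knockout label. It lay between 5.68 and 7.93 CPM in vehicle sedentary and between 10.96 and 18.87 CPM in knockout sedentary libraries (two-sided exact permutation test, p = 0.00794, which is the lowest value 5 against 5 allows). In trained muscle it lay between 6.32 and 6.68 CPM in 4 vehicle libraries, at 132.3 CPM in vehicle trained library 2, and between 8.04 and 16.1 CPM in knockout samples (exact permutation p = 1.0, and 0.0286 without that library, the lowest value 4 against 3 allows). Gene-level counts do not separate exons inside and outside the floxed stretch, so directions below follow the labels. Muscle fibre markers, 10 of 10 above 0 in every sample, summed to between 62320 and 98950 CPM. Nothing states that libraries came from separate animals, so p-values measure the spread between these samples, which may be technical.

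In sedentary muscle, RNA of the alpha and beta receptor subunits rose by 1.27 and 1.36 on the log2 scale in the libraries labelled knockout, while delta, epsilon, Musk, Runx1, Ncam1 and both developmental myosins did not pass the test. Chrna1 (ENSMUSG00000027107, chromosome 2) was at 16.9, 15.9, 12.2, 11.9 and 14.5 CPM in vehicle sedentary libraries 1 to 5 and at 27.6, 41.3, 31.8, 33.8 and 43.9 CPM in knockout sedentary libraries. Every knockout value was above every vehicle value. The log2 change was 1.27 with SE 0.16 (adjusted p = 0.000109, by the quasi-likelihood test of edgeR with Benjamini-Hochberg correction over all tested genes), and 1.28 without vehicle trained library 2 (adjusted p = 1.9e-05). Chrnb1 (ENSMUSG00000041189, chromosome 11), whose product is the structural beta subunit, was at 35.8, 24.6, 28.1, 28.7 and 33.5 CPM in vehicle sedentary and at 101.2, 79.2, 61.2, 67.2 and 93.9 CPM in knockout sedentary libraries. These groups did not overlap either, with the lowest knockout library at 61.2 CPM and the highest vehicle library at 35.8 CPM. The log2 change was 1.36 with SE 0.26 (adjusted p = 0.00581), and 1.37 without vehicle trained library 2 (adjusted p = 0.000392).

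Of the 10 genes, 9 passed the filter on low counts and 2 of these 9 rose, against 2.33% of all tested genes called in either direction and 1.02% called higher. Without vehicle trained library 2 the same 2 of 9 rose, against 6.98% called and 3.14% called higher. Groups did not overlap for these 2 of the 9 genes, against 9.4% of all tested genes in either direction and 5.63% higher. The median log2 change over the 9 genes was 0.27, beside 0.01 over all tested genes. In whole muscle, more of the cells that make an RNA and more RNA in each of them cannot be told apart.

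**Figure D1:**
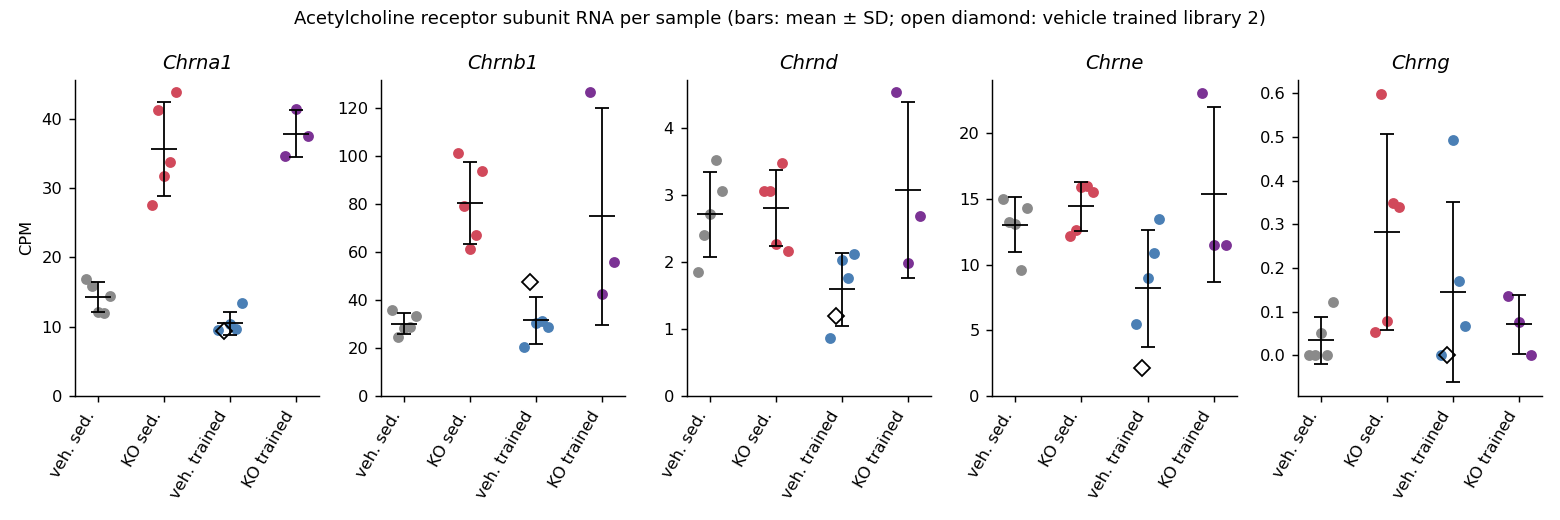
CPM of the 5 receptor subunit genes in each sample of the 4 groups, with mean and SD as bars and vehicle trained library 2 as an open diamond. Chrna1 and Chrnb1 lie higher in both knockout groups than in vehicle sedentary muscle, Chrnd and Chrne overlap between groups, and Chrng stays under 0.6 CPM.

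The remaining subunits did not follow alpha and beta in sedentary muscle. Chrnd (ENSMUSG00000026251, chromosome 1), which both receptor forms contain, was at 1.86, 2.40, 2.72, 3.52 and 3.06 CPM in vehicle and at 3.06, 3.06, 2.27, 3.48 and 2.17 CPM in knockout sedentary libraries. The groups lay on top of each other (log2 change -0.01, SE 0.26, edgeR adjusted p = 1.0). Chrne (ENSMUSG00000014609, chromosome 11), the adult-type subunit, was at 15, 13.2, 13.1, 9.60 and 14.4 CPM in vehicle and at 12.2, 12.6, 15.9, 15.99 and 15.5 CPM in knockout libraries. Here 3 knockout libraries were above every vehicle library and 2 were within their range (log2 change 0.09, SE 0.31, adjusted p = 1.0).

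Without vehicle trained library 2, the log2 changes in sedentary muscle of the 7 tested genes other than Chrna1 and Chrnb1 lay between -0.06 and 0.73 (smallest adjusted p = 0.394, edgeR).

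Chrng (ENSMUSG00000026253, chromosome 1), the fetal subunit, was near the limit of counting in every group and did not pass the filter. The 5 vehicle sedentary libraries held 3 counts between them, with 0 in 3 libraries, and the 5 knockout sedentary libraries held 1, 9, 1, 4 and 5 counts. Knockout trained libraries held 4 counts in all, and vehicle trained libraries 12, of which 8 were in library 3. In a library with 0 counts, up to 3 counts would be allowed, which is 0.179 to 0.252 CPM at these depths and covers counting error only. A fit of all samples with no filter gave Chrng a log2 change of 2.64 with SE 1.12 in sedentary muscle (edgeR adjusted p = 0.488) and -1.03 with SE 1.24 in trained muscle (adjusted p = 0.777), so no difference was shown at this depth.

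Per length, on the scale of RPKM, alpha stood below epsilon in vehicle sedentary muscle and level with it in knockout sedentary muscle. RPKM is CPM divided by exon length in kilobases, here the union of all annotated GENCODE M21 exons. That union is 4386 bases for Chrna1 and 1690 for Chrne, and the order of subunits and the percentages depend on it. In CPM the vehicle sedentary means were 14.3 for Chrna1 and 13.1 for Chrne. The annotation behind the deposited counts is not given. In vehicle sedentary muscle the levels were 11.9 ± 1.77 for Chrnb1, 7.73 ± 1.24 for Chrne, 3.25 ± 0.501 for Chrna1, 0.824 ± 0.192 for Chrnd and 0.00838 ± 0.0129 for Chrng (mean ± SD in RPKM, n = 5). No 2 neighbours in this order overlapped over the 5 libraries. In knockout sedentary muscle Chrnb1 was at 31.8 ± 6.73 RPKM, while Chrne at 8.54 ± 1.11 and Chrna1 at 8.14 ± 1.55 did not differ beyond their spread (SD, n = 5). The ratio of Chrna1 to Chrne per length was 0.358 to 0.479 in the 5 vehicle sedentary libraries and 0.771 to 1.26 in the 5 knockout sedentary libraries. The ratio of Chrnb1 to Chrne was 1.24 to 2.00 and 2.57 to 5.55 in the same groups, again without overlap. By contrast the ratio of Chrnd to Chrne overlapped, at 0.0636 to 0.188 and 0.0718 to 0.129. Gamma made up at most 1.89% of the gamma plus epsilon RPKM in any knockout sedentary library and at most 2.18% in any vehicle trained library.

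In trained muscle the alpha subunit rose again, and beta rose by a call that rests on few libraries. Chrna1 was at 9.49, 9.38, 10.4, 9.68 and 13.4 CPM in vehicle trained libraries 1 to 5 and at 34.6, 41.4 and 37.5 CPM in the 3 knockout trained samples (libraries 1 and 4, library 2, libraries 3 and 5). The lowest knockout sample was well above the highest vehicle library. The log2 change was 1.90 with SE 0.18 (edgeR adjusted p = 8.2e-06), and 1.89 without vehicle trained library 2 (adjusted p = 3.0e-06). Chrnb1 was at 20.4, 47.5, 30.3, 31.1 and 28.7 CPM in vehicle trained libraries and at 126.6, 42.4 and 55.8 CPM in knockout trained samples. The groups overlapped only through vehicle trained library 2, whose 47.5 CPM exceeded 1 of the 3 knockout samples. The log2 change was 1.24 with SE 0.29 (adjusted p = 0.0232), and 1.47 without vehicle trained library 2 (adjusted p = 0.00129). The Chrnb1 call was lost without knockout trained libraries 1 and 4 (log2 change 0.74, adjusted p = 0.18), without vehicle trained library 4 (1.22, adjusted p = 0.051), and in a fit of the 2 trained groups alone (1.24, adjusted p = 0.362).

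These 2 of the 9 tested genes were called, against 3.29% of all tested genes in either direction and 1.99% higher. Without vehicle trained library 2 the 2 were again called, against 8.66% of all tested genes and 5.01% higher. The median log2 change over the 9 genes was 0.40, beside -0.03 over all tested genes, and 0.44 beside 0.00462 without that library. Groups did not overlap for Chrna1 (higher) and Musk (lower), 2 of the 9 genes, against 7.95% of all tested genes. Without that library Chrnb1 joined them, 3 of 9 against 14.5% (6% higher and 8.5% lower). The sedentary and the trained comparison share no libraries, although 1 estimate of spread serves both.

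Chrnd was at 0.863, 1.19, 2.03, 1.76 and 2.12 CPM in vehicle trained and at 4.53, 1.99 and 2.69 CPM in knockout trained samples. Of the 3 knockout samples 2 were above every vehicle library, and the log2 change of 0.97 with SE 0.30 missed the threshold in edgeR (adjusted p = 0.0914, and 0.0736 without vehicle trained library 2) but passed it in DESeq2 (adjusted p = 0.0298). Chrne was at 5.47, 2.11, 8.98, 10.9 and 13.5 CPM in vehicle trained and at 23.1, 11.5 and 11.5 CPM in knockout trained samples. The ranges overlapped through vehicle library 5 (log2 change 0.94, SE 0.36, edgeR adjusted p = 0.178, and 0.71 with adjusted p = 0.0903 without vehicle trained library 2). For both genes the sample of libraries 1 and 4 was the highest of the 3. That sample was also the highest of its group for Chrnb1, Chrng, Runx1, Ncam1 and Myh8, and the lowest for Chrna1.

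**Figure D2:**
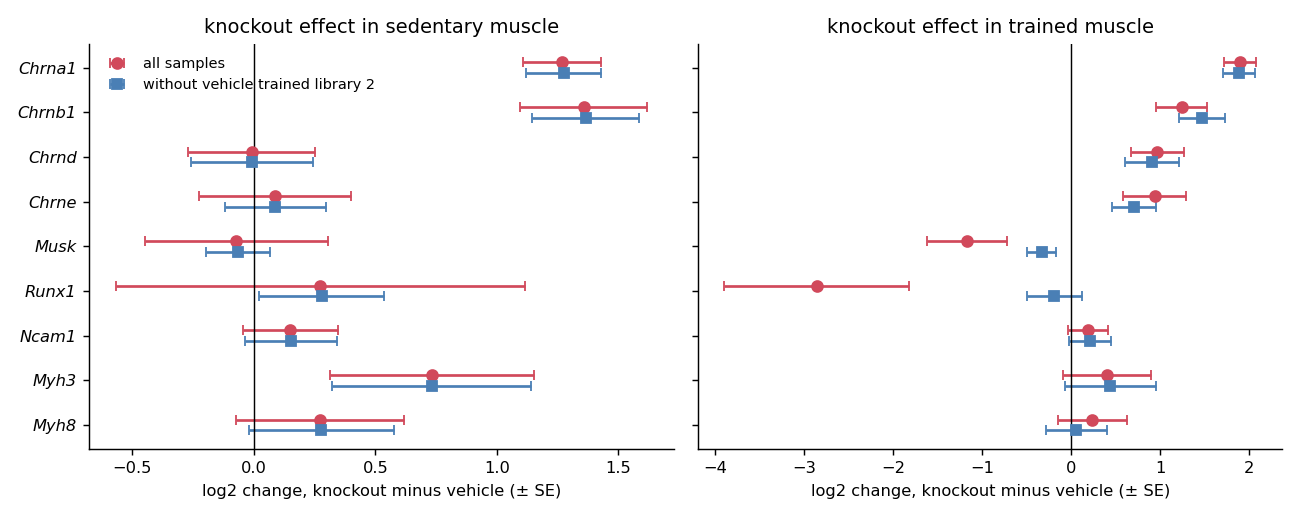
Log2 change (knockout minus vehicle, with SE) of the 9 tested genes in sedentary and trained muscle, in the fit of all samples (circles) and without vehicle trained library 2 (squares). Chrna1 and Chrnb1 lie at 1.27 and 1.36 in sedentary muscle and at 1.90 and 1.24 in trained muscle with all samples, and the values of Musk and Runx1 in trained muscle move towards 0 when that library is left out.

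Musk (ENSMUSG00000057280, chromosome 4) encodes the kinase that organizes the postsynaptic membrane. It was at 30.01, 25.9, 20.2, 22.7 and 30.6 CPM in vehicle sedentary and at 22.0, 30.5, 25.2, 23.9 and 26.8 CPM in knockout sedentary libraries, with full overlap (log2 change -0.07, SE 0.38, edgeR adjusted p = 1.0). In vehicle trained libraries it was at 18.1, 95.3, 18.7, 23.6 and 22.9 CPM, and in knockout trained samples at 15.6, 16.7 and 15.2 CPM. All 3 knockout trained samples were below every vehicle trained library, a pattern that 3.98% of all tested genes showed in this direction, and 8.5% without vehicle trained library 2. The difference did not pass the test with that library (log2 change -1.17, SE 0.45, adjusted p = 0.186) or without it (-0.33, SE 0.16, adjusted p = 0.233). The same 3 samples were also below all 5 knockout sedentary libraries, which 9.77% of all tested genes were (log2 change -0.56, adjusted p = 0.809, or -0.55 with adjusted p = 0.077 without vehicle trained library 2).

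Runx1 (ENSMUSG00000022952, chromosome 16), which protects denervated fibres from wasting, was at 2.17, 4.59, 5.12, 3.34 and 3.67 CPM in vehicle sedentary and at 5.01, 7.04, 3.52, 4.00 and 4.2 CPM in knockout sedentary libraries. The ranges overlapped, with 1 knockout library above all vehicle libraries (log2 change 0.27, SE 0.84, edgeR adjusted p = 0.999). In trained muscle the vehicle libraries were at 3.67, 100.2, 4.61, 2.90 and 4.16 CPM and the knockout samples at 4.27, 3.899 and 1.77 CPM. The log2 change of -2.86 with SE 1.04 (adjusted p = 0.158) became -0.19 with SE 0.31 (adjusted p = 0.782) without vehicle trained library 2. Of the Runx1 exon length, 0.881% overlaps a gene on the other strand, Gm26626.

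Ncam1 (ENSMUSG00000039542, chromosome 9), an adhesion molecule that spreads over denervated fibres and is also made by satellite and Schwann cells, lay between 4.09 and 7.78 CPM in vehicle sedentary and between 4.88 and 8.17 CPM in knockout sedentary libraries (log2 change 0.15, SE 0.20, edgeR adjusted p = 0.975). In trained muscle it lay between 4.06 and 4.46 CPM in vehicle libraries and at 6.74, 3.13 and 4.29 CPM in knockout samples (log2 change 0.19, SE 0.23, adjusted p = 0.70, and 0.21 with adjusted p = 0.646 without vehicle trained library 2). The 5 vehicle trained values, library 2 included, were the tightest group of this gene. Of the Ncam1 exon length, 4.81% overlaps the opposite-strand gene Gm11149, and the strandedness of the counts is not given in the sources used here.

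Developmental myosin RNA stayed at trace level in all 4 groups. Myh3 (ENSMUSG00000020908, chromosome 11), embryonic myosin, was at 2.55, 2.93, 3.55, 1.79 and 1.65 CPM in vehicle sedentary and at 2.58, 3.79, 2.74, 8.17 and 4.33 CPM in knockout sedentary libraries. Knockout library 4 stood above the rest, and the log2 change was 0.73 with SE 0.42 (edgeR adjusted p = 0.674). In trained muscle Myh3 was at 4.17, 1.72, 1.23, 0.740 and 0.727 CPM in vehicle libraries and at 2.33, 1.83 and 2.35 CPM in knockout samples (log2 change 0.40, SE 0.50, adjusted p = 0.717, and 0.44 with adjusted p = 0.671 without vehicle trained library 2). Myh8 (ENSMUSG00000055775, chromosome 11), perinatal myosin, lay between 1.67 and 3.13 CPM in vehicle sedentary and between 1.72 and 3.83 CPM in knockout sedentary libraries (log2 change 0.27, SE 0.35, adjusted p = 0.97). It lay between 1.06 and 4.18 CPM in vehicle trained libraries and at 5.19, 2.07 and 2.11 CPM in knockout trained samples (log2 change 0.24, SE 0.39, adjusted p = 0.793, and 0.06 with adjusted p = 0.943 without that library). Per length, Myh3 made up at most 0.0275% and Myh8 at most 0.0108% of the RPKM of 7 striated muscle myosins in any sample. These shares depend on the exon unions, 11772 bases for Myh8 and 6057 for Myh3. Both genes share sequence with the abundant adult genes Myh1, Myh2 and Myh4, so estimated counts at this level are uncertain.

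**Figure D3:**
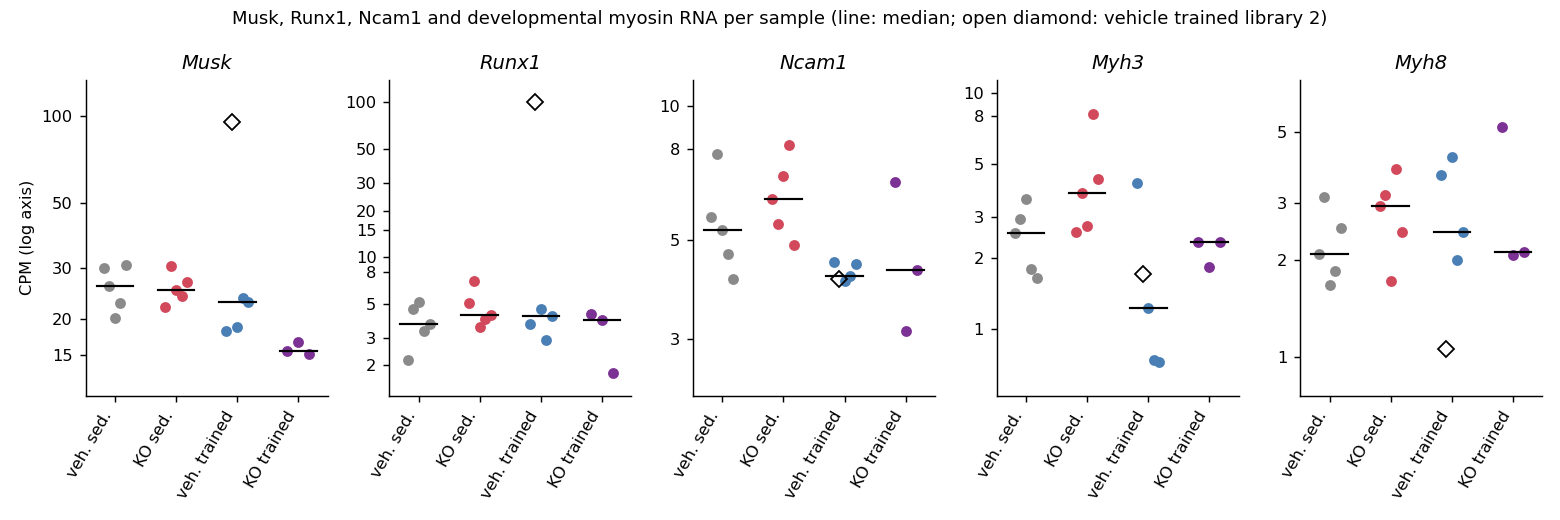
CPM on a log axis of Musk, Runx1, Ncam1, Myh3 and Myh8 in each sample, with the group median as a line and vehicle trained library 2 as an open diamond. Library 2 is at 95.3 CPM for Musk and 100.2 CPM for Runx1, far from every other sample, and the 3 knockout trained samples are the lowest for Musk.

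Training called none of the 9 tested genes in vehicle or in knockout muscle, beside 0% of all tested genes in both comparisons (edgeR). In vehicle muscle the groups overlapped for all 9, against 2.98% of all tested genes that did not, or 4.91% without vehicle trained library 2. DESeq2 called 0 of the 9 in vehicle muscle and gave Runx1 no adjusted p. With 2186 of all tested genes at an unadjusted p under 0.05 in edgeR there, 3 of the 9 were as well. These were Chrna1 (log2 change -0.40, SE 0.16, edgeR adjusted p = 0.283), Chrnd (-0.71, SE 0.27, adjusted p = 0.277, and -0.635 without vehicle trained library 2) and Runx1 (2.72, SE 0.84, adjusted p = 0.272, and 0.06 without it). Chrna1 was at 11.9 to 16.9 CPM in vehicle sedentary and 9.38 to 13.4 CPM in vehicle trained libraries, so that only library 5 of the trained group reached the sedentary range. Without vehicle trained library 2 its log2 change was -0.38 (adjusted p = 0.369).

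In knockout muscle DESeq2 called none of Chrna1, Chrnb1 and Musk, and it gave the other genes of the 9 no adjusted p. In edgeR 0 of the 9 had an unadjusted p under 0.05, beside 1394 of all tested genes. Without vehicle trained library 2, which belongs to neither group, 0.843% of all tested genes were called, 0 of the 9 among them. Musk alone of the 9 then had an unadjusted p under 0.05, beside 2516 of all tested genes. Chrna1 changed by 0.23 on the log2 scale (SE 0.18, edgeR adjusted p = 0.803) and Chrnb1 by 0.01 (SE 0.29, adjusted p = 0.998), and without that library by 0.24 and 0.01 (adjusted p = 0.511 and 0.986). Musk and Myh3 were the 2 genes of the 9 whose groups did not overlap, both lower after training, against 11.9% of all tested genes in either direction. Myh3 was at 2.58 to 8.17 CPM in knockout sedentary and 1.83 to 2.35 CPM in knockout trained samples (log2 change -0.84, SE 0.49, adjusted p = 0.654, and -0.82 with adjusted p = 0.397 without vehicle trained library 2).

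Whether the knockout effect differed between trained and sedentary muscle was tested by the interaction, which called 0 of the 9 genes and 0% of all tested genes in edgeR. DESeq2 gave an adjusted p for Chrnb1 alone of the 9 and did not call it, so it says nothing on the others. In edgeR 3 of the 9 had an unadjusted p under 0.05, beside 1076 of all tested genes. Chrna1 had an interaction of 0.63 with SE 0.24 (adjusted p = 0.646), the amount by which its log2 rise was larger in trained muscle, and 0.61 without vehicle trained library 2 (adjusted p = 0.343). The interaction was -0.11 with SE 0.39 for Chrnb1 (adjusted p = 0.944) and 0.98 with SE 0.40 for Chrnd (adjusted p = 0.658). Without that library these were 0.11 and 0.91 (adjusted p = 0.94 and 0.383). For Runx1 it moved from -3.13 with SE 1.31 to -0.47 with SE 0.40 when that library was left out.

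Among other genes of the endplate, Colq rose in both states, and it encodes the collagen tail that anchors acetylcholinesterase in the synaptic cleft. Its mean was 10.1 ± 2.24 CPM (SD, n = 5) with vehicle and 23.4 ± 1.69 CPM (SD, n = 5) with knockout in sedentary muscle (log2 change 1.15, SE 0.23, edgeR adjusted p = 0.0071). In trained muscle it was at 7.90 ± 3.11 CPM (SD, n = 5) and 20.8 ± 5.02 CPM (SD, n = 3), log2 change 1.43 (adjusted p = 0.00349). When vehicle trained library 2, where Colq was low, was left out, the vehicle mean was 8.89 ± 2.54 CPM (SD, n = 4) and the log2 change 1.28 (adjusted p = 0.000719). Of 17 listed endplate genes, all in the table and 16 tested, 1 rose and 0 fell in sedentary muscle, and 2 rose and 0 fell in trained muscle, with Etv5, an ETS factor of synaptic nuclei, as the second (log2 change 0.55, adjusted p = 0.0433). These 1 and 2 of 16 stand beside 2.33% and 3.29% of all tested genes called. Without vehicle trained library 2 the counts were 2 and 4 higher and 0 lower, beside 6.98% and 8.66% of all tested genes called, with Prkar1a, a regulatory subunit of protein kinase A, added in both states (log2 change 0.38 and 0.54) and Ache, the acetylcholinesterase gene, in trained muscle (0.79, adjusted p = 0.0387). The median log2 change of the tested endplate genes was 0.09 in sedentary and 0.36 in trained muscle. The most abundant endplate genes were Dag1, Prkar1a, Syne1 and Gabpa, and 0 of these 4 passed in the fit of all samples (log2 change between -0.63 and 0.44 over both states, smallest adjusted p = 0.0917).

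The signalling genes of the MuSK complex, picked for their role after their values had been seen, did not pass the test. In sedentary muscle the log2 change was -0.02 for Agrn (agrin), 0.43 for its receptor gene Lrp4, -0.48 for the MuSK adaptor gene Dok7 and 0.07 for Rapsn, which encodes the receptor clustering protein rapsyn. The smallest adjusted p of these 4 was that of Dok7, at 0.17 in edgeR with all samples and 0.0654 without vehicle trained library 2. The Dok7 level was 30.4 ± 2.46 CPM (SD, n = 5) with vehicle and 22.8 ± 4.08 CPM (SD, n = 5) with knockout, and its groups overlapped. Those of Lrp4 did not, at 13.8 to 15.2 CPM with vehicle and 16.1 to 24.5 CPM with knockout. Such a gap upward was shown by 5.63% of all tested genes.

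Of 15 listed denervation response genes, 13 tested, 1 rose and 0 fell in sedentary muscle in the fit of all samples, beside 2.33% of all tested genes called. This was Sln, which encodes the calcium pump inhibitor sarcolipin, at 3.05 ± 0.789 CPM (SD, n = 5) with vehicle and 31.3 ± 22.6 CPM (SD, n = 5) with knockout (log2 change 3.29, SE 0.51, edgeR adjusted p = 0.00091). In trained muscle 0 of the 13 passed, 4 had an unadjusted p under 0.05, beside 2467 of all tested genes, and DESeq2 called 1 of the 13. Leaving out vehicle trained library 2 changed these counts to 7 higher and 1 lower in sedentary muscle and 4 higher and 1 lower in trained muscle, beside 6.98% (3.14% higher) and 8.66% (5.01% higher) of all tested genes. The 7 were Sln, the cell cycle inhibitor gene Cdkn1a, the stress gene Gadd45a, the myogenic factor genes Myod1 and Myog, Ankrd1 and Tnfrsf12a, and the histone deacetylase gene Hdac9 fell. In trained muscle the 4 were Sln, Cdkn1a, Gadd45a and Ankrd1, and Hdac9 fell again. With all samples the log2 changes of these 4 in trained muscle were 1.70, -0.46, -1.08 and -0.41, so for Cdkn1a, Gadd45a and Ankrd1 the direction there turned with that 1 library.

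In sedentary muscle Cdkn1a was at 9.01 ± 1.28 CPM (SD, n = 5) with vehicle and 127.8 ± 24.5 CPM (SD, n = 5) with knockout, and the groups did not overlap. The log2 change was 3.76 (edgeR adjusted p = 0.106) in the fit of all samples and 3.77 (adjusted p = 4.6e-09) without vehicle trained library 2, where this gene was at 800.7 CPM. Myog, the factor that binds the subunit E-boxes after denervation, was at 6.93 ± 0.739 and 12.1 ± 3.89 CPM in the same groups (SD, n = 5 each), a log2 change of 0.76 (adjusted p = 0.633, and 0.0172 without that library). Its change in trained muscle was -0.63 with all samples and 0.23 without that library (adjusted p = 0.529 and 0.613). Gadd45a, which rises early after denervation, was at 27.0 ± 3.31 and 49.2 ± 7.92 CPM in sedentary muscle, a log2 change of 0.80 with all samples (adjusted p = 0.809) and 0.81 without that library (adjusted p = 0.000134). In trained muscle its change was -1.08 with all samples (adjusted p = 0.42) and 0.50 without that library (adjusted p = 0.032). The ubiquitin ligase genes Trim63 and Fbxo32, which denervated muscle raises strongly, changed by 0.38 and 0.26 in sedentary and by 0.14 and -0.13 in trained muscle without that library (smallest adjusted p = 0.0872), and by 0.38 and 0.25 and by -2.19 and -1.51 with all samples (smallest adjusted p = 0.207). Hdac4, which mediates much of the response, changed by 0.00799 and -0.21 without that library and by 0.00362 and -0.65 with all samples, with no adjusted p under 0.298.

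Of 10 listed developmental muscle genes, 8 tested, Mybph rose most. Mybph, a myosin binding protein of immature fibres, was at 57.6 ± 14.6 CPM (SD, n = 5) with vehicle and 377.5 ± 98.1 CPM (SD, n = 5) with knockout in sedentary muscle (log2 change 2.65, SE 0.30, edgeR adjusted p = 3.9e-05). In trained muscle it was at 60.8 ± 27.7 CPM (SD, n = 5) and 342.4 ± 129.8 CPM (SD, n = 3), log2 change 2.55 (adjusted p = 0.000205), or 2.36 without vehicle trained library 2 (adjusted p = 1.7e-05). Actc1, the cardiac alpha-actin that fetal muscle uses, was at 49.6 ± 9.58 and 127.3 ± 24.1 CPM in sedentary muscle (SD, n = 5 each; log2 change 1.30, adjusted p = 0.111, and 1.9e-05 without vehicle trained library 2). Its log2 change in trained muscle was 2.39 (adjusted p = 0.00433), and 2.10 without that library (adjusted p = 1.2e-06). The counts were 1 higher and 0 lower in sedentary and 2 higher and 0 lower in trained muscle, and 3 higher and 0 lower in each without that library (2.33%, 3.29%, 6.98% and 8.66% of all tested genes were called in these fits), with the cadherin gene Cdh15 as the third. H19 and Igf2, imprinted genes of growing muscle, did not pass (log2 change -0.06 and 0.18 in sedentary muscle). Of 8 adult myosin heavy chain genes, 6 tested, 0 passed in any comparison with or without that library, and DESeq2 called 0. With all samples, 0 and 2 of the 6 had an unadjusted p under 0.05 in sedentary and trained muscle, beside 1409 and 2467 of all tested genes. Neither training nor the interaction called any gene of these 4 lists in edgeR, with or without vehicle trained library 2. DESeq2, fitted with all samples only, called 0 too, but how many of these genes it gave no adjusted p was not counted. With all samples, 7 of the 13 denervation response genes had an unadjusted p under 0.05 for training in vehicle muscle, and 0 of them without that library. Of all tested genes, 2186 had such a p with all samples and 1869 without that library.

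**Figure D4:**
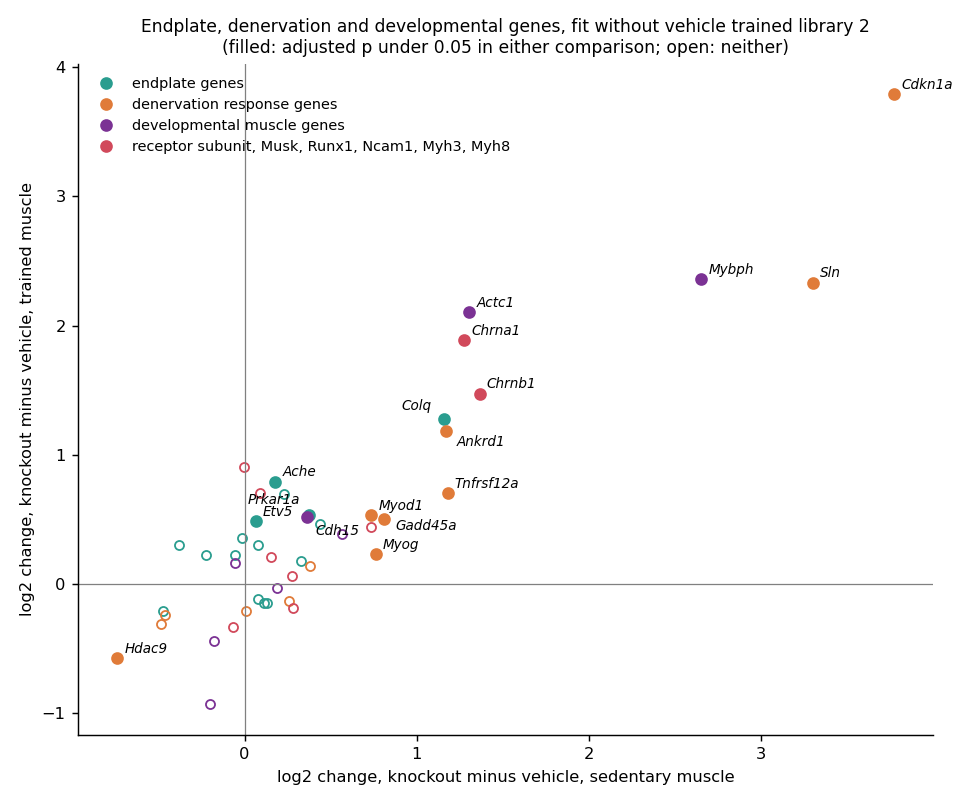
Log2 change (knockout minus vehicle) in sedentary muscle against trained muscle for the 9 tested genes and the endplate, denervation response and developmental lists, in the fit without vehicle trained library 2. Filled points passed the test in at least 1 comparison, and Cdkn1a, Sln, Mybph, Actc1, Ankrd1, Chrna1, Chrnb1 and Colq lie farthest to the upper right.

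Markers of other cells were summed beside these changes. Satellite cell markers, 8 of 8 above 0 in every sample, summed to 82.2 to 97.5 CPM in vehicle sedentary and 128.5 to 145.9 CPM in knockout sedentary libraries. In trained muscle they summed to 77.5 to 87.2 CPM in 4 vehicle libraries and to 382.3 CPM in library 2, against 106.1 to 125.9 CPM in knockout samples. Most of that difference was 1 gene, Sdc4, which was singled out after its values were seen. It was at 40.3 to 50.04 CPM in vehicle and 78.5 to 95.5 CPM in knockout sedentary libraries, at 37.1 to 40.4 CPM in 4 vehicle trained libraries, 360.7 CPM in library 2 and 60.7 to 72.1 CPM in knockout trained samples. The other 7 markers summed to overlapping ranges, 41.9 to 50.95 against 49.8 to 60.7 CPM in sedentary muscle and 37.1 to 47.8 (library 2 left out) against 44.3 to 53.9 CPM in trained muscle. Their mean sums were 45.76 against 54.99 CPM in sedentary and 42.37 (library 2 left out) against 48.04 CPM in trained muscle. In sedentary muscle each of these 7 had a higher mean with knockout. In trained muscle, library 2 left out, all of them but Myf5 and Cxcr4 did. Pax7, the defining marker, was at 5.36 ± 1.67 CPM with vehicle and 5.47 ± 0.896 CPM with knockout in sedentary muscle (SD, n = 5 each). Of the 7 satellite cell markers tested, 0 passed for the knockout with all samples in edgeR and 0 in DESeq2. In edgeR 0 in sedentary and 1 in trained muscle had an unadjusted p under 0.05, beside 1409 and 2467 of all tested genes. Without vehicle trained library 2, 1 of the 7 markers, Sdc4, passed in each state. The part of these cells in the Chrna1 and Chrnb1 results was not tested. Schwann cell markers, of which 9 of 10 were in the table and 8 above 0 in every sample, overlapped between vehicle and knockout, at 62.0 to 167.1 against 69.2 to 121.3 CPM in sedentary and 54.6 to 113.3 against 75.5 to 98.4 CPM in trained muscle. Macrophage markers, 10 of 10 in the table and 9 above 0 in every sample, overlapped as well, at 64.6 to 266.7 against 104.3 to 285.2 CPM in sedentary muscle and 180.3 to 477.5 against 63.7 to 362.8 CPM in trained muscle. Fibroblast markers, 8 of 8, summed to 1060 to 2309 against 1381 to 2516 CPM in sedentary and 1779 to 3184 against 1041 to 2176 CPM in trained muscle. Among them Col3a1, chosen after its values were seen, was at 96.1 ± 32.5 and 186.7 ± 42.0 CPM in sedentary vehicle and knockout muscle (SD, n = 5 each; log2 change 0.91, edgeR adjusted p = 0.472, and 0.0188 without that library). In trained muscle its mean was lower with knockout, at 136.6 CPM with vehicle and 111.8 CPM with knockout. Dcn, the most abundant, had means of 1143 and 1260 CPM in sedentary muscle. Pdgfra, also chosen after its values were seen, was at 49.4 to 83.4 against 24.1 to 46.9 CPM in trained muscle. Such a gap downward was shown by 3.98% of all tested genes. Endothelial (8 of 8), adipocyte (6 of 7 above 0 in every sample) and blood markers (5 of 5) overlapped between vehicle and knockout in both states as well, with vehicle against knockout sums of 217.4 to 336 against 271.8 to 338.2, 224.9 to 470.4 against 309.2 to 388.4, and 370.2 to 863.7 against 348.1 to 842.8 CPM in sedentary muscle. In trained muscle the sums were 219 to 278.2 against 220.1 to 350.2, 171.6 to 1094 against 379.3 to 721.1, and 514.2 to 2050 against 429.2 to 2892 CPM. Lymphocyte markers summed to at most 6.04 CPM, with 0 of 8 above 0 in every sample.

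Over the 17 samples other than vehicle trained library 2, log2(CPM + 1) of Chrna1 and Chrnb1 had a Pearson r of 0.84, the highest among the 36 pairs of the 9 genes. These values are given as descriptions, since samples share groups, depth and processing. Chrnd and Chrne had r = 0.67, Chrna1 and Chrnd r = 0.42, and Musk lay between -0.23 and 0.27 with each of the other 8. Of all other tested genes, those most like Chrna1 were Hhatl, Psmb7 and Tead4 (r = 0.97, 0.96 and 0.96), and those most like Chrnb1 were Hip1r, Wdr6 and Mapre3 (0.99, 0.97 and 0.97). Those most like Chrne were Ache, Ufsp1 and Tars2 (0.92, 0.87 and 0.85), and those most like Chrnd were Nos2, Fbxw5 and Itga6 (0.88, 0.83 and 0.83). Heatr3, Sdad1 and Ccdc6 were most like Musk (0.91, 0.88 and 0.87). The best matches of Myh3, Myh8, Ncam1 and Runx1 were Baiap2l1 (0.85), Hspa1a (0.71), Mideas (0.88) and Gm7816 (0.81).

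Vehicle trained library 2 carried the highest level of several denervation response genes in the series. Runx1 at 100.2 CPM was 26.1 times the average of its 4 companion libraries, and Musk at 95.3 CPM was 4.57 times it. Both were above all other 17 samples. Chrna1 at 9.38, Chrne at 2.11 and Myh8 at 1.06 CPM were below all other 17 samples, while Chrnb1 at 47.5 CPM, Chrnd, Myh3 and Ncam1 lay within their range. So 2 of the 9 genes were above and 3 below, against 24.5% and 35.6% of all tested genes. Of 13 denervation response genes 8 were above (61.5%) and 4 below (30.8%), the highest folds being those of Cdkn1a, Trim63 at 6307 CPM (19.4 times), Ankrd1 and Gadd45a (10.3 and 10.2 times). Myog was at 4.69 times the other libraries, and Myod1 and Hdac9 at 0.25 and 0.24 times. Of 16 endplate genes 9 were below and 1 above, with Ache at 0.0967 times the other 4 libraries. Being a single library, it has no replicate.

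**Figure D5:**
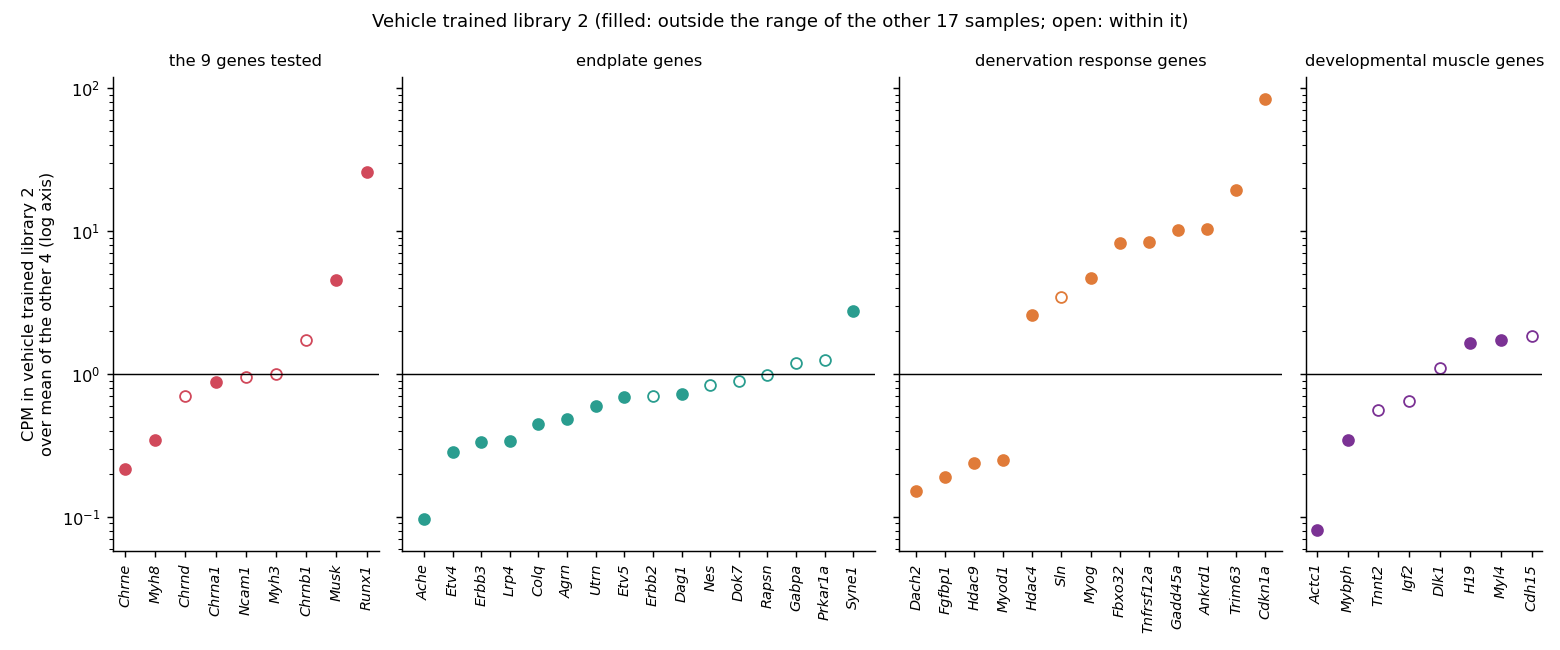
CPM in vehicle trained library 2 as a multiple of the mean of the other 4 vehicle trained libraries (log axis) for the 9 tested genes and 3 lists. Filled points lie outside the range of the other 17 samples, among them Runx1 at 26.1 and Musk at 4.57 above the line of 1 and Chrne at 0.218 below it.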

How the data were processed

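Total RNA of hindlimb muscle was extracted with Trizol and a column kit, per the labels. The submitters' processing notes name Partek, STAR 2.7.8a, DESeq2 and the builds mm10 and GRCm39 with no roles. Annotation and strandedness are not given in the sources used here. The authors deposited estimated counts per gene under the name of another unit. Of the values, 72.6% are whole within 1e-09, and no gene sums to under 10. Counts were rounded. Pairs of libraries whose noise at 1000 to 10000 counts was under 1.5 times that at 10 to 100 counts were merged (2 of 190 pairs), summed for tests and averaged for CPM, leaving 18 samples. The 14359 genes that reached a CPM of 1 in 5 or more of the 20 libraries were tested with edgeR 4.0.16 (R 4.3.3, glmQLFit and glmQLFTest, TMM, 4 group means), two-sided, with Benjamini-Hochberg adjustment over all of them and a threshold of 0.05. The SE is the log2 change over the root of its F statistic. The test was checked on simulated counts. Alternatives used DESeq2 1.42.0, limma 3.58.1 on log2(CPM + 1), other scalings, filters and samples. A gene that DESeq2 gave no adjusted p counts as not called by it. The members and lists were chosen with earlier results of these data known. All 10 genes were named. Of the lists, those passing the test and the 4 of highest mean were. The rule allowed the 3 genes most like each member. Genes that passed only without vehicle trained library 2, the MuSK complex and the genes named for that library were added after seeing their values.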

Additional observations from a re-analysis of the deposited data

Results flagged for a closer look

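In 30 groups of 5 samples (10 genes in 3 groups), 4 single samples stood apart from the rest of their group by Dixon's criterion at the 95% level. Chance gives about 1 in 20 groups, here 1.5. Musk was at 95.26 CPM in vehicle trained library 2, with the other 4 libraries between 18.12 and 23.63 CPM. Runx1 was at 100.2 CPM in the same library, with the others between 2.904 and 4.614 CPM. Myh3 was at 4.171 CPM in vehicle trained library 1, with the others between 0.7271 and 1.718 CPM. Chrna1 was at 13.35 CPM in vehicle trained library 5, with the others between 9.38 and 10.4 CPM, so this library differed in the direction of the vehicle sedentary group. For none of the 10 genes did every vehicle sample move one way with training and every knockout sample the opposite way.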

How the results depend on the processing

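Each result was recomputed under 27 settings, which gave 1189 values for 45 combinations of gene and comparison. Of these, 1137 kept their direction and side of the threshold, 3 lost the threshold, 6 gained it and 43 changed sign, none of them past the threshold. The changes of sign fell in 15 combinations, with a log2 change of at most 0.536 in the fit of all samples, and 17 combinations had no adjusted p in DESeq2. Chrna1 in both states and Chrnb1 in sedentary muscle passed under all 27 settings. Scaling by library total alone was added after seeing the data. It moved the median log2 change of all genes to -0.154 for training in knockout muscle and to -0.121 for the interaction, against which log2 changes there should be read.

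With the 20 libraries as separate samples, 1225 genes and 5 members were called in trained muscle (Chrnd, Musk and Runx1 added) and 49 genes for training in knockout muscle. With the replicate block, also over 20 libraries, 980 genes and 4 members (Chrnd and Chrne added) were called in trained muscle. Same-numbered libraries did not pair. Their deviations had correlations between -0.394 and 0.347 (median 0.0274, 11 of 30 over 0.1), and 4 of 20 libraries correlated best with their own number. DESeq2 called 537 and 907 genes for the knockout in sedentary and trained muscle, 15 and 198 for training in vehicle and knockout muscle, and 26 for the interaction. With only the 2 groups compared, 1177 genes were called in sedentary muscle, and 20 genes and 1 member in trained muscle. The cause was not tested.

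Sign changes outside the leave-one-out fits were all small. For Chrnd in sedentary muscle they were 0.022 (replicate block), 0.00176 (limma) and 0.0461 (library total). For Myh8 the interaction was 0.0436 (separate libraries) and 0.0402 (replicate block). For Chrnb1, training in knockout muscle was -0.0969 (limma) and -0.102 (library total), and the Ncam1 interaction was -0.0231 and -0.0341 under the same settings.

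Leaving out 1 sample at a time, all genes called ranged from 251 to 1002 in sedentary muscle, 177 to 1244 in trained muscle (members from 1 to 2), 0 to 1 for training in vehicle muscle and 0 to 397 in knockout muscle. The highest counts of the first 2 came without vehicle trained library 2, and the lowest in trained muscle without knockout trained libraries 3 and 5. Without knockout trained library 2 the count there was 299. Training in knockout muscle called 397 genes without knockout trained libraries 1 and 4, 121 without vehicle trained library 2 and 45 without vehicle trained library 1. Log2 changes that changed sign ranged as follows. For the knockout in sedentary muscle, Chrnd lay between -0.109 and 0.0825, Chrne between -0.0184 and 0.154, and Musk between -0.157 and 0.024. For the knockout in trained muscle, Myh8 lay between -0.25 and 0.504 and Ncam1 between -0.0706 and 0.397. For training in vehicle muscle, Chrnb1 lay between -0.0951 and 0.249 and Musk between -0.288 and 0.711. For training in knockout muscle, Chrnb1 lay between -0.505 and 0.281, Chrnd between -0.0403 and 0.479, Chrne between -0.117 and 0.365, and Myh8 between -0.227 and 0.466. For the interaction, Chrnb1 lay between -0.628 and 0.154, Myh3 between -0.54 and 0.266, Myh8 between -0.527 and 0.23, and Ncam1 between -0.225 and 0.246. Depth limits Chrng most, and for Chrnd, Myh3, Myh8 and Ncam1 the SE of the log2 change in trained muscle, 0.30, 0.50, 0.39 and 0.23, sets what these 3 knockout samples can show.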
